A study of Homo sapiens with 21 samples.

Results

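The NRF2 target and detoxification genes examined here are NQO1, HMOX1, GCLC, GCLM, TXNRD1, SRXN1, AKR1C1, AKR1C2 and AKR1B10. They were taken by symbol, as 9 of the 20111 genes listed in both experiments, and their levels were followed across the 7 groups of libraries. All 9 passed the filter on low values in each experiment. The transcription factor NRF2, encoded by NFE2L2, is held at a low level by KEAP1, an adaptor that brings it to a CUL3 ubiquitin ligase. When electrophiles or oxidants modify KEAP1, NRF2 accumulates, pairs with a small MAF protein and binds antioxidant response elements, from which the repressor BACH1 is displaced. Its targets make glutathione, reduce thioredoxin, quinones and carbonyls, and degrade heme. In lung cancer the pathway is best known for its activation by mutations of KEAP1 or NFE2L2.

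By their labels the samples were PC-9 cells, a human lung adenocarcinoma line with an activating EGFR deletion, so all groups would share that mutation. The line and the mutation were not checked in each library. EGFR-high and EGFR-low cells are populations sorted from this line over 6 rounds for the highest or lowest surface EGFR, so each is a selected population of a single line. In the untreated experiment, parental, EGFR-high and EGFR-low cells were harvested 24 h after seeding without any drug. In the vorinostat experiment, EGFR-high and EGFR-low cells received DMSO or 1 µM vorinostat (SAHA), a histone deacetylase inhibitor, for 72 h. Polyadenylated RNA was sequenced from 3 libraries per group, 21 in all. Levels are in FPKM, mapped fragments scaled by transcript length and by the number of fragments in the library. The values of a library summed to between 467897 and 592942 FPKM in the untreated experiment and between 511011 and 582866 FPKM in the other, and the number of reads behind them is unknown.

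Several libraries stood apart. EGFR, the gene used for sorting, averaged 49.1 FPKM in untreated EGFR-low cells against 224 FPKM in EGFR-high and 208 FPKM in parental cells. It averaged 26.8 against 115 FPKM with DMSO and 18.0 against 168 FPKM with vorinostat, so its order followed the labels. The libraries labelled EGFR-low in the vorinostat experiment nevertheless went against those of the untreated experiment. The lung lineage factor NKX2-1 was at 24.1 to 51.1 FPKM in them and at no more than 0.069 FPKM in every untreated library. Of the 3 lung markers listed, it alone reached 1 FPKM in all of them. The lung marker NAPSA was at 0.207 to 3.41 FPKM there and SFTPB at no more than 0.0365 FPKM. In all, 86 genes were at 10 FPKM or more in each of the 3 EGFR-low vorinostat libraries and under 1 FPKM in each of the 3 untreated EGFR-low libraries, and 83 genes showed the opposite, while no gene did either between the EGFR-high groups. Whether the EGFR-low libraries of both experiments hold the same cells was not tested. EGFR-low DMSO replicate 1 and EGFR-high DMSO replicate 3 lay between the groups on the first principal component (25.6 and -26.3, with the other 10 libraries of this experiment at 61.6 to 66.7 or -59.4 to -67.2), and the latter held NKX2-1 at 11.1 FPKM. In the vorinostat replicates numbered 1, mitochondrial genes took 22.2% and 24.2% of the summed values, against 7.27 to 18.6% in the other libraries of this experiment and 6.58 to 13.2% in the untreated ones. Their part in the results below was not tested. The main results include these libraries, and values without them are added to some of the results. All 5 epithelial markers were at 1 FPKM or more in every library, but their sum was 1088 to 1464 FPKM in EGFR-low against 2166 to 2686 FPKM in EGFR-high libraries with DMSO, and 1001 to 1195 against 2215 to 3034 FPKM with vorinostat. The keratins KRT8, KRT18 and KRT19 were lower and CDH1 was higher in the EGFR-low libraries there, without overlap, and the part of this in the results was not tested. Of the 5 fibroblast, 3 leukocyte and 2 endothelial markers listed, 1 each (COL1A1, CD68 and CDH5) reached that level throughout any group.

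On GRCh38, AKR1C1 (chr10:4963253-4983283, plus strand) and AKR1C2 (chr10:4987400-5018031, minus strand) are neighbours, with AKR1C3 beside them at chr10:5035354-5107686. AKR1B10 lies at chr7:134527592-134541408, GCLC at chr6:53497341-53616970 and GCLM at chr1:93885205-93909456. TXNRD1 lies at chr12:104215779-104350305, SRXN1 at chr20:646615-653370, NQO1 at chr16:69706996-69726951 and HMOX1 at chr22:35380361-35394214. The coding sequences of AKR1C1 and AKR1C2, each of 969 bases, differ at 19 positions (98% identity), and their longest identical run is 186 bases. The 90 coding bases from 73 to 162, counted from the start codon, hold 10 of these differences. Within the coding sequence only fragments across such positions can separate these genes, and untranslated regions were not compared. The 90 bases are shown with capitals at the bases that differ (GENCODE):

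AKR1C1: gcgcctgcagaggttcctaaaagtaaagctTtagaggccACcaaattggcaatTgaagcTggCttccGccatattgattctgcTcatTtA

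AKR1C2: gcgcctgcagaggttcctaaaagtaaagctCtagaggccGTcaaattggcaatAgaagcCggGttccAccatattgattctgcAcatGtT

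AKR1C1 and AKR1C2 are also alike upstream. Of the 250 bases before each RefSeq start (GRCh38.p14), 245 form a single run shared letter for letter. AKR1C1 shared 91.8% of aligned coding positions with AKR1C3, and AKR1B10 shared 85.9% with AKR1B15 and 76.1% with AKR1B1. Among the pairs compared, AKR1C1 and AKR1C2 were the most alike (98%). How reads were split within each family was not tested, so its part in these values is unknown.

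RefSeq promoter windows, from 250 bases before to 50 bases after a start, were at hand for 7 of the 9 genes (8 windows, TXNRD1 having 2). They were searched on both strands for TGACNNNGC, the core of the antioxidant response element. It was found in 3 of the 8 windows, that of GCLM and both of TXNRD1, and in 13.3% of the 35116 windows of the whole table. The windows of TXNRD1 belong to a single gene. The AP-1 type motif TGANTCA, which can overlap it, was in none of the 8 and in 7.71% of all windows. The 4 matches are printed with 10 bases on either side, on the strand of the gene and with the motif or its reverse complement in capitals, since they are the NRF2-type letters nearest to these starts:

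GCLM, chr1:93909446-93909474, minus strand: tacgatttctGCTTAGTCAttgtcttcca

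TXNRD1, chr12:104215670-104215698, plus strand: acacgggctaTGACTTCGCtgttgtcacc

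TXNRD1, chr12:104215761-104215789, plus strand: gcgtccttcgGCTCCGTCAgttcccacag

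TXNRD1, second start, chr12:104286920-104286948, plus strand: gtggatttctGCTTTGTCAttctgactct

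A match describes these letters only, and no binding was measured.

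Untreated EGFR-low cells were compared with EGFR-high cells to ask how the sorted populations differ without drug. AKR1B10, an aldo-keto reductase that reduces retinal and lipid aldehydes, rose in EGFR-low cells and was the only gene of the 9 to pass the test. Its level was 486, 511 and 537 FPKM in the EGFR-low libraries, 109, 127 and 96.7 FPKM in the EGFR-high libraries and 211, 164 and 139 FPKM in the parental libraries. The EGFR-low libraries lay above all others and the EGFR-high libraries below all parental ones (6.02% of all genes were lower in EGFR-high than in parental cells without overlap). The log2 difference from EGFR-high was 2.2 (SE 0.252, limma adjusted p = 0.000703) and from parental cells 1.59 (SE 0.252, limma adjusted p = 0.0095). In bulk RNA, a larger share of expressing cells and more RNA per cell cannot be told apart. The background was 3.81% of the 11305 genes tested called against EGFR-high cells (1.62% higher and 2.19% lower) and 1.6% against parental cells (0.831% higher and 0.77% lower). The call against parental cells was lost without EGFR-low replicate 1 (1.63, limma adjusted p = 0.0681) or EGFR-low replicate 3 (1.55, limma adjusted p = 0.0691), while the value stayed near 1.6.

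**Figure D1:**
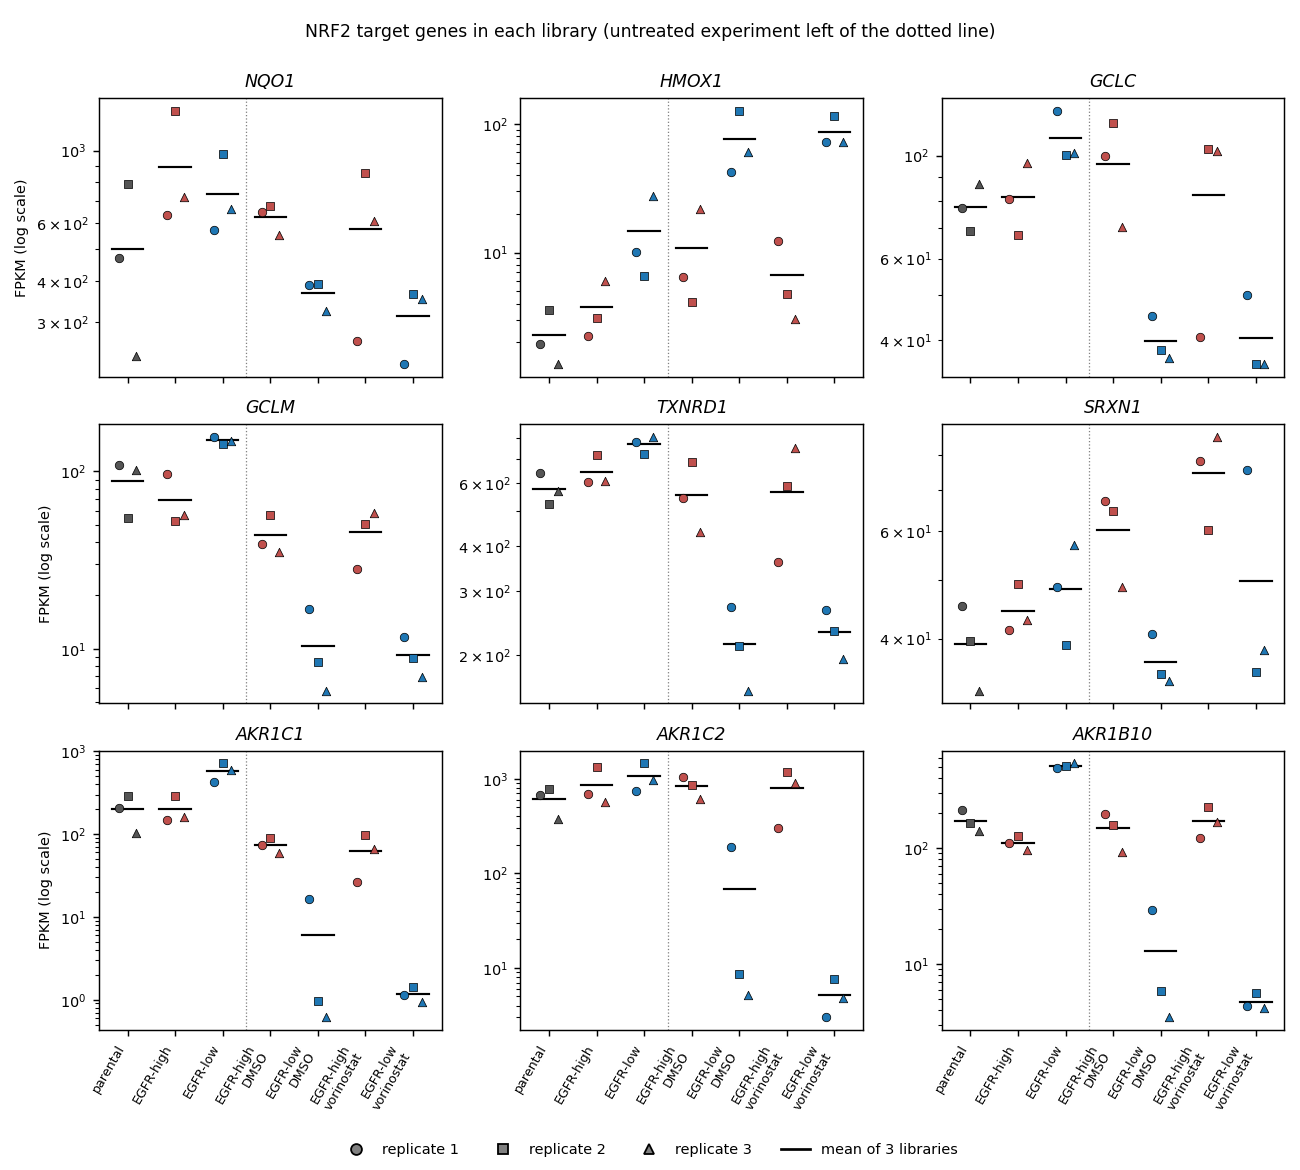
Level of each of the 9 genes in FPKM (vertical log axes) in the 3 libraries of each of the 7 groups, with symbols for replicates and black lines for means; the experiments, separated by the dotted line, were normalised separately. EGFR-low libraries are the highest for AKR1B10 left of the line (486 to 537 FPKM) and among the lowest right of it (3.48 to 29.4 FPKM), and EGFR-low DMSO replicate 1 lies above the other EGFR-low DMSO libraries for AKR1C1, AKR1C2 and AKR1B10.

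AKR1C1 and AKR1C2 encode hydroxysteroid dehydrogenases that reduce ketosteroids and aldehydes. AKR1C1 was at 420, 718 and 588 FPKM in untreated EGFR-low cells, 147, 289 and 160 FPKM in EGFR-high cells and 205, 288 and 102 FPKM in parental cells. The EGFR-low libraries did not overlap the others, but the log2 differences of 1.56 from EGFR-high (SE 0.413, limma adjusted p = 0.069) and 1.62 from parental cells (limma adjusted p = 0.0942) missed the threshold. AKR1C2 was at 734, 1458 and 978 FPKM in EGFR-low cells and at 684, 1321 and 566 FPKM in EGFR-high cells. These groups overlapped, with a log2 difference of 0.34 (95% interval -0.57 to 1.26, limma adjusted p = 0.864).

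Same-numbered untreated EGFR-low and EGFR-high libraries deviated together (r from 0.343 to 0.730 over genes), so the numbers were taken to pair them. This pairing was inferred from these data. With the number as a block, 3 of the 9 genes passed, all higher in EGFR-low cells. The additional ones were AKR1C1 (limma adjusted p = 0.0137) and GCLM (limma adjusted p = 0.0195). That fit included the parental libraries, whose numbers did not pair with EGFR-low or EGFR-high (lowest r -0.092 and -0.0023). A block fit of EGFR-low and EGFR-high libraries alone was not run. The share of all genes called with the block is not given here, so the count of 3 has no background.

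GCLC and GCLM encode the catalytic and modifier subunits of glutamate-cysteine ligase, which catalyses the rate-limiting step of glutathione synthesis. GCLM was at 156, 142 and 149 FPKM in untreated EGFR-low cells, 96.9, 52.4 and 56.5 FPKM in EGFR-high cells and 108, 54.7 and 102 FPKM in parental cells. The EGFR-low libraries were above all others, and the log2 difference from EGFR-high was 1.17 (SE 0.326, limma adjusted p = 0.0863). GCLC was at 125, 100.5 and 101 FPKM in EGFR-low cells and at 80.8, 67.3 and 96.4 FPKM in EGFR-high cells. These groups did not overlap either, with a smaller difference of 0.42 on the log2 scale (95% interval -0.11 to 0.95, limma adjusted p = 0.528).

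TXNRD1, the cytosolic thioredoxin reductase, was at 778, 722 and 804 FPKM in untreated EGFR-low cells and at 602, 717 and 606 FPKM in EGFR-high cells, without overlap and with a log2 difference of 0.26 (95% interval -0.28 to 0.81). SRXN1, or sulfiredoxin, which repairs overoxidised peroxiredoxins, overlapped between the groups (39.1 to 56.9 against 41.3 to 49.1 FPKM). NQO1, the quinone reductase most used as an NRF2 readout, was at 574, 979 and 664 FPKM in EGFR-low and at 634, 1325 and 723 FPKM in EGFR-high cells. Its log2 difference was -0.23 (95% interval -1.23 to 0.76), the only negative one of the 9.

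HMOX1, or heme oxygenase 1, which is repressed by BACH1 as well as induced by NRF2, was at 10.1, 6.56 and 27.5 FPKM in untreated EGFR-low cells, 2.27, 3.10 and 6.04 FPKM in EGFR-high cells and 1.93, 3.55 and 1.35 FPKM in parental cells. All EGFR-low libraries were above the others, and the spread among them was wide. The log2 differences of 1.56 from EGFR-high (limma adjusted p = 0.115) and 2.09 from parental cells (limma adjusted p = 0.0573) missed the threshold.

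Of the 9 genes, 6 were higher without overlap in untreated EGFR-low than in EGFR-high cells, against 9.39% of all genes tested higher and 11.2% lower without overlap. Their median log2 difference was 0.42, against -0.029 for all genes. From parental cells, 6 were also higher without overlap (9.07% of all genes, with 8.02% lower) and the median was 0.80, against 0.061 for all genes. These comparisons share the EGFR-low libraries. Between EGFR-high and parental cells none of the 9 passed, with log2 differences from -0.61 for AKR1B10 to 0.93 for NQO1. The background there was 0.0708% of genes called by limma, and at an unadjusted p under 0.05 the counts were 1 of the 9 genes, AKR1B10, and 9.67% of all genes.

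Libraries labelled EGFR-low were also compared with EGFR-high libraries after 72 h in DMSO. The direction was the opposite for most of the genes: 7 of the 9 fell (all but HMOX1 and NQO1) and HMOX1 rose. The background was high, with 51.8% of the 12236 genes tested called, 31.1% higher and 20.7% lower. Without overlap, 8 of the 9 were lower and 1 higher, against 28.4% and 40.9% of all genes. The median log2 difference of the 9 genes was -1.38, against 0.12 for all genes. Median-of-ratios scaling took the median of all genes to 0.0034 and the split of all calls from 3807 higher and 2527 lower to 3177 and 3201, and the 7 genes and HMOX1 passed in the same directions.

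AKR1C2 had the largest difference of the 9. It was at 192, 8.56 and 5.18 FPKM in the libraries labelled EGFR-low and at 1050.2, 857 and 609 FPKM in EGFR-high libraries with DMSO. AKR1C1 was at 16.3, 0.969 and 0.617 FPKM against 74.4, 89.0 and 58.9 FPKM, and AKR1B10 at 29.4, 5.87 and 3.48 FPKM against 196, 157 and 92.9 FPKM. For all 3 genes the groups did not overlap, replicate 1 was by far the highest EGFR-low library, and replicate 3 was the lowest EGFR-high library. The log2 differences were -5.19 for AKR1C2 (SE 1.01, limma adjusted p = 0.00146), -4.28 for AKR1C1 (SE 0.734, limma adjusted p = 0.000716) and -3.87 for AKR1B10 (SE 0.558, limma adjusted p = 0.00035). Without those 2 intermediate libraries they were -6.95, -5.53 and -4.99.

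GCLM was at 16.7, 8.45 and 5.80 FPKM in the libraries labelled EGFR-low and at 39.2, 57.0 and 35.3 FPKM in EGFR-high libraries with DMSO (log2 difference -2.07, SE 0.355, limma adjusted p = 0.000716). GCLC was at 45.0, 38.1 and 36.6 FPKM against 100.1, 117 and 70.3 FPKM (-1.22, SE 0.318, limma adjusted p = 0.0076). Both subunits of the ligase were thus lower in every EGFR-low library than in any EGFR-high library.

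TXNRD1 was at 272, 211 and 159 FPKM against 545, 686 and 439 FPKM with DMSO (log2 difference -1.38, SE 0.274, limma adjusted p = 0.00157). SRXN1 was at 40.7, 35 and 34.1 FPKM against 67.2, 64.7 and 48.7 FPKM (-0.69, SE 0.253, limma adjusted p = 0.0375). SRXN1 was the weakest of the calls and was lost without any of EGFR-low DMSO replicates 2 and 3 and EGFR-high DMSO replicates 1 and 2 (limma adjusted p = 0.0957, 0.104, 0.115 and 0.107), and when genes of low value were kept (limma adjusted p = 0.0655).

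NQO1 was at 388, 391 and 325 FPKM in the libraries labelled EGFR-low and at 650, 678 and 554 FPKM in EGFR-high libraries with DMSO. The groups did not overlap, and the log2 difference of -0.77 (95% interval -1.52 to -0.012) missed the threshold with limma adjusted p = 0.0821. It passed with median-of-ratios scaling (-0.90, limma adjusted p = 0.0327), with only the compared groups fitted (limma adjusted p = 0.00415) and without the vorinostat replicates numbered 1 (limma adjusted p = 0.00176).

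HMOX1 alone of the 9 went the other way. It was at 42.1, 127 and 60.2 FPKM in the libraries labelled EGFR-low and at 6.49, 4.14 and 21.9 FPKM in EGFR-high libraries with DMSO. The lowest EGFR-low library, replicate 1, and the highest EGFR-high library, replicate 3, were the 2 intermediate ones. The log2 difference was 2.86 (SE 0.577, limma adjusted p = 0.00175), and it was 3.83 without them. HMOX1 was thus the only one of the 9 with a positive difference between EGFR-low and EGFR-high libraries in all of the untreated, DMSO and vorinostat comparisons.

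**Figure D2:**
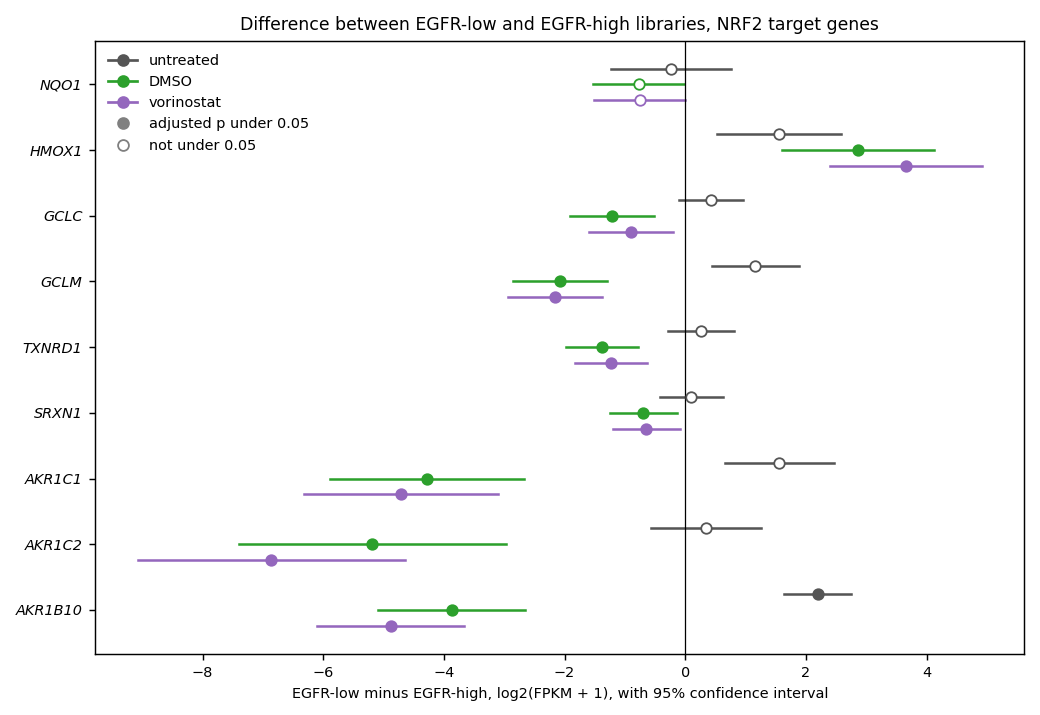
Difference between EGFR-low and EGFR-high libraries on the log2(FPKM + 1) scale (horizontal axis) for each of the 9 genes, with 95% confidence intervals from limma, for untreated, DMSO and vorinostat libraries (n = 3 per group); filled points have an adjusted p under 0.05. AKR1C1, AKR1B10 and GCLM are right of 0 untreated (1.56, 2.2 and 1.17) and left of 0 with DMSO (-4.28, -3.87 and -2.07), whereas HMOX1 is right of 0 in every comparison.

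With vorinostat in both groups, the same 7 genes fell in the libraries labelled EGFR-low and HMOX1 rose. The background was 59% of the 12236 genes called, 36.2% higher and 22.8% lower. Without overlap, 5 were lower and 1 higher, against 23.5% and 37.3% of all genes. The median log2 difference of the 9 genes was -1.23, against 0.16 for all genes. With median-of-ratios scaling all calls split into 3617 higher and 3591 lower in place of 4427 and 2795.

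AKR1C2 was at 3.02, 7.59 and 4.86 FPKM in EGFR-low and at 299, 1189 and 893 FPKM in EGFR-high libraries with vorinostat (log2 difference -6.86, SE 1.01, limma adjusted p = 0.000158). AKR1B10 was at 4.37, 5.66 and 4.15 FPKM against 122, 228 and 166 FPKM (-4.88, SE 0.558, limma adjusted p = 4.73e-05). AKR1C1 was at 1.15, 1.44 and 0.933 FPKM against 26.7, 97.7 and 65.3 FPKM (-4.71, SE 0.734, limma adjusted p = 0.000225). Vorinostat replicate 1 was the lowest EGFR-high library for each of these reductases, yet far above every EGFR-low library.

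GCLM (-2.16, limma adjusted p = 0.000318) and TXNRD1 (-1.23, limma adjusted p = 0.00233) also fell without overlap. GCLC and SRXN1 passed with overlapping groups (-0.91 and -0.65, limma adjusted p = 0.0281 and 0.0445). For GCLC, EGFR-high vorinostat replicate 1 was at 40.6 FPKM, below EGFR-low replicate 1 at 50.1 FPKM. For SRXN1, EGFR-low replicate 1 was at 75.7 FPKM, amid the EGFR-high libraries at 60.2 to 85.6 FPKM. Without the vorinostat replicates numbered 1 these log2 differences were -1.51 and -0.95, and 9 of the 9 genes passed, NQO1 included (-1.01, limma adjusted p = 0.00121). The share of all genes called in that fit is not given here, so this count has no background. The GCLC call was lost without EGFR-low vorinostat replicate 2 or 3 or EGFR-high vorinostat replicate 2 or 3 (limma adjusted p = 0.0834, 0.0832, 0.111 and 0.109). The SRXN1 call was lost without EGFR-low vorinostat replicate 2 or 3 or EGFR-high vorinostat replicate 1 or 3 (limma adjusted p = 0.179, 0.155, 0.0932 and 0.131), and both were lost with only the compared groups fitted (limma adjusted p = 0.0663 and 0.101) or with genes of low value kept (limma adjusted p = 0.0531 and 0.0737). The SRXN1 call was also lost without the 2 intermediate DMSO libraries (limma adjusted p = 0.0521).

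HMOX1 was at 72.5, 115 and 72.5 FPKM in EGFR-low and at 12.3, 4.75 and 3.03 FPKM in EGFR-high libraries with vorinostat, with a log2 difference of 3.66 (SE 0.577, limma adjusted p = 0.000239). NQO1 overlapped between the groups, at 222 to 364 FPKM against 263 to 856 FPKM.

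Because AKR1C1 and AKR1C2 share most of their sequence, their sum was fitted as well. It was at 208, 9.53 and 5.79 FPKM in the libraries labelled EGFR-low and at 1125, 946 and 668 FPKM in EGFR-high libraries with DMSO. The log2 difference of the sum was -5.18 (limma adjusted p = 0.0014) with DMSO, -6.71 (limma adjusted p = 0.000172) with vorinostat and 0.67 (limma adjusted p = 0.581) untreated.

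The ratio of AKR1C1 to AKR1C2 was 0.572, 0.492 and 0.601 in untreated EGFR-low cells, 0.214, 0.219 and 0.283 in EGFR-high cells and 0.304, 0.369 and 0.270 in parental cells. It was higher in EGFR-low cells than in either other group without overlap, at the smallest p that 3 libraries against 3 allow in an exact permutation test (two-sided p = 0.1). With DMSO the ratios were 0.0853 to 0.119 in EGFR-low and 0.0709 to 0.104 in EGFR-high libraries and overlapped (exact permutation p = 0.4). With vorinostat they were 0.189 to 0.381 and 0.0732 to 0.0892, without overlap (exact permutation p = 0.1), on AKR1C1 levels near 1 FPKM in the EGFR-low libraries.

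**Figure D3:**
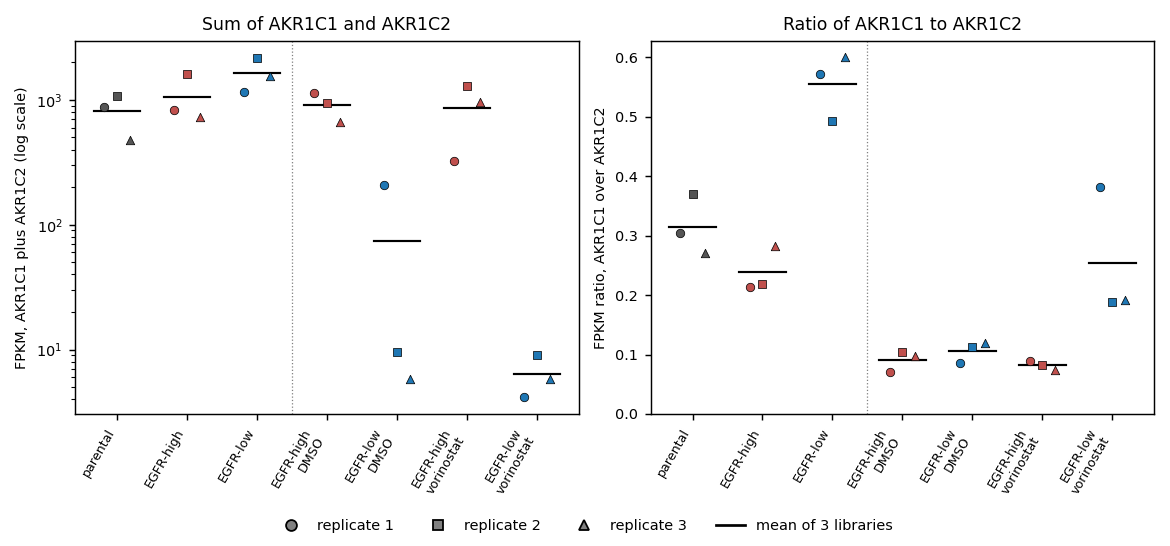
Sum of AKR1C1 and AKR1C2 in FPKM (left, log axis) and the ratio of AKR1C1 to AKR1C2 in FPKM (right, linear axis from 0) in each library of the 7 groups, with black lines for means. The sum drops to between 4.17 and 9.53 FPKM in all libraries labelled EGFR-low right of the dotted line except DMSO replicate 1 at 208 FPKM, and the ratio is highest in untreated EGFR-low cells (0.492 to 0.601).

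Vorinostat was compared with DMSO within each population to ask whether the drug moved these genes. None of the 9 passed in EGFR-low or in EGFR-high libraries, and none differed between the populations in its response. The background was 0% in each comparison, since limma called 0 of the 12236 genes. At an unadjusted p under 0.05, 0 of the 9 genes passed in each, against 0.94% of all genes in EGFR-low, 3.34% in EGFR-high libraries and 1.76% for the difference between them. The log2 differences in libraries labelled EGFR-low ran from -1.94 for AKR1C2 (95% interval -4.15 to 0.28) to 0.35 for SRXN1 (-0.20 to 0.91). Those in EGFR-high libraries ran from -0.51 for HMOX1 (-1.77 to 0.76) to 0.31 for SRXN1 (-0.25 to 0.86). Intervals this wide leave room for sizeable responses. With 0 genes called in all, the lack of calls is not particular to the 9 genes. Over the genes tested, same-numbered DMSO and vorinostat libraries had r = 0.953, 0.997 and 0.996 in EGFR-low and 0.963, 0.990 and 0.963 in EGFR-high. DMSO libraries of a group had r from 0.957 to 0.994 and from 0.966 to 0.985. Whether the drug acted in these libraries was not tested. The AKR1C2 value in EGFR-low libraries was -0.39 without EGFR-low DMSO replicate 1, and AKR1C1 (-0.82) and AKR1B10 (-0.78) became 0.28 and 0.037. Without the vorinostat replicates numbered 1, NQO1, GCLC, AKR1C1 and AKR1C2 in EGFR-high libraries went from negative to positive (0.21, 0.13, 0.13 and 0.33).

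NFE2L2, which encodes NRF2, was at 91.8, 67.8 and 79.3 FPKM in untreated EGFR-low cells, 60.7, 40.3 and 45.9 FPKM in EGFR-high cells and 85.7, 39.0 and 88.2 FPKM in parental cells (0.70 against EGFR-high, limma adjusted p = 0.397). With DMSO it was at 67.7 to 68.3 FPKM in EGFR-low and 40.4 to 54.6 FPKM in EGFR-high libraries (0.51, limma adjusted p = 0.0877). NFE2L2 was thus higher in EGFR-low libraries without overlap untreated and with DMSO, while passing the test in neither, and with vorinostat the groups overlapped (0.36, limma adjusted p = 0.206).

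KEAP1 was at 19.8 to 54.5 FPKM in untreated EGFR-low cells and at 27.6 to 47.0 FPKM in EGFR-high cells. With DMSO it was at 24.0, 20.1 and 21.3 FPKM against 40.8, 37.8 and 37.0 FPKM, a log2 difference of -0.80 (limma adjusted p = 0.0713). BACH1, the repressor of HMOX1, fell in the libraries labelled EGFR-low, at 9.13, 3.34 and 4.36 FPKM against 20.4, 17.4 and 16.4 FPKM with DMSO (-1.62, SE 0.386, limma adjusted p = 0.00462) and at 8.85, 3.31 and 3.01 FPKM against 20.5, 16.8 and 34.7 FPKM with vorinostat (-2.11, limma adjusted p = 0.000655). Untreated, BACH1 overlapped between the groups (11.4 to 16.4 against 10.9 to 17.2 FPKM). These are RNA levels, and NRF2 itself is controlled mainly as a protein.

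**Figure D4:**
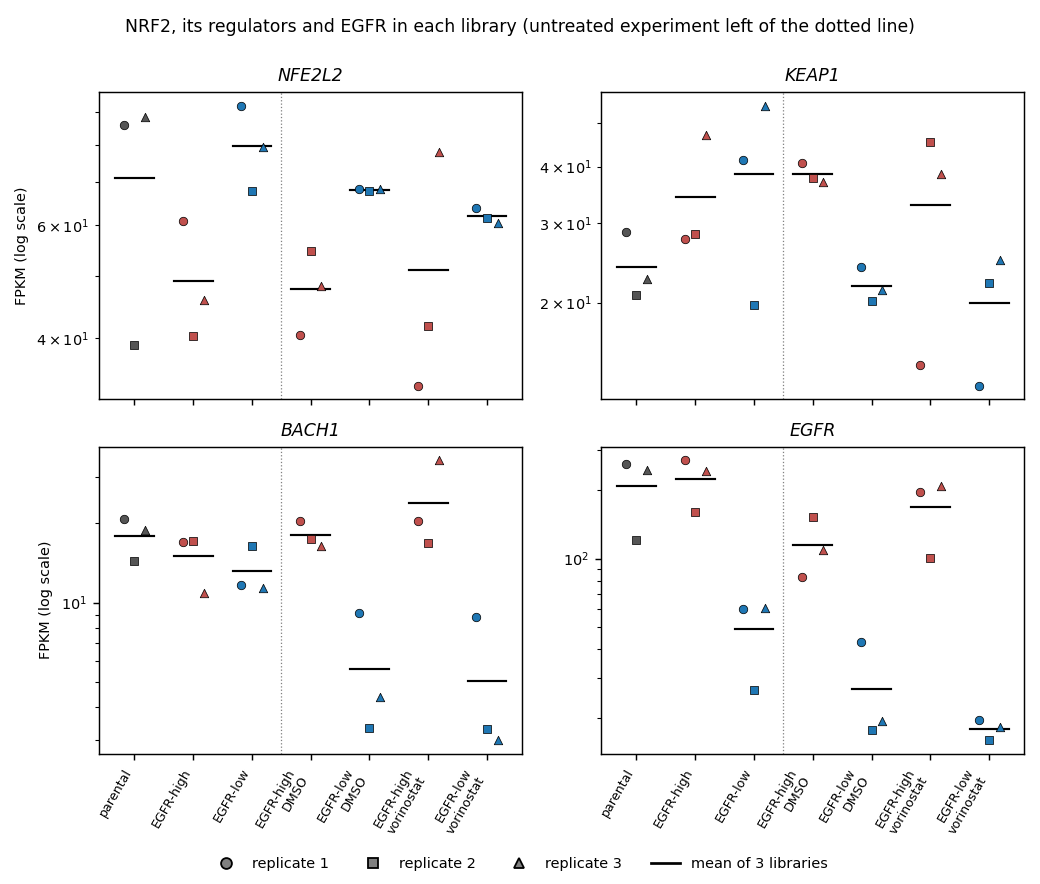
Level in FPKM (vertical log axes) of NFE2L2, KEAP1, BACH1 and EGFR in each library of the 7 groups, with symbols for replicates and black lines for means. BACH1 is at 3.01 to 9.13 FPKM in libraries labelled EGFR-low right of the dotted line, below all EGFR-high libraries there, and EGFR is below the EGFR-high level in EGFR-low libraries of both experiments.

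Of 12 genes that control NRF2, none passed in the untreated comparison of EGFR-low with EGFR-high cells. In libraries labelled EGFR-low with DMSO, 3 fell and 2 rose, where 20.7% and 31.1% of all genes did. Those that fell were BACH1, the small MAF gene MAFF (-1.28) and CUL3 (-1.03, 53.6, 40.7 and 36.3 against 88.2, 99.2 and 79.9 FPKM). Those that rose were DPP3 (1.18), a protein that binds KEAP1, and BTRC (0.98), a subunit of a second ligase acting on NRF2. With vorinostat 3 fell and 3 rose, where 22.8% and 36.2% of all genes did. The median log2 difference of this list with DMSO was 0.11, close to the 0.12 of all genes.

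Other NRF2 targets were described with a list of 34 further genes, of which 33 were tested. Untreated, 4 rose in EGFR-low against EGFR-high cells and none fell, where 1.62% and 2.19% of all genes did. The median was 0.28, against -0.029 for all genes. The genes that rose are named next. They were ALDH3A1, an aldehyde dehydrogenase (3.16, limma adjusted p = 0.00155, 278, 183 and 262 against 20.0, 26.7 and 31.1 FPKM), GPX2, a glutathione peroxidase (1.77, limma adjusted p = 0.00688), SLC7A11, the cystine importer that feeds glutathione synthesis (1.74, limma adjusted p = 0.00709), and CYP4F11, a fatty acid hydroxylase (1.29, limma adjusted p = 0.0217). With the replicate block 8 rose, a count given without the share of all genes called in that fit. Against parental cells only ALDH3A1 of the list passed (3.08, limma adjusted p = 0.00365).

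With DMSO, 18 of the 33 fell in the libraries labelled EGFR-low and 1 rose, where 20.7% and 31.1% of all genes did. The median was -0.71, against 0.12 for all genes. Those that fell furthest were AKR1C3 (-5.18), ALDH3A1 (-3.89), GPX2 (-3.54) and CYP4F11 (-3.38), so 3 of the 4 genes higher in untreated EGFR-low cells were lower here. GPX2 was at 8.61, 1.65 and 0.924 FPKM against 55.2, 48.7 and 26.9 FPKM. CYP4F11 averaged 1.11 FPKM in the libraries labelled EGFR-low, near the filter of 1 FPKM, against 17.7 FPKM in EGFR-high libraries. The gene that rose was ABCB6, a porphyrin transporter (0.53), and it missed the threshold with median-of-ratios or quantile scaling, where 24 and 20 of the list fell and none rose. No gene of the list rose either without a filter, or without EGFR-low DMSO replicate 2 or 3 or EGFR-high DMSO replicate 1 or 2. SLC7A11, the fourth, did not pass (20.9 to 34.9 against 25.4 to 46.4 FPKM). Without the 2 intermediate libraries 19 fell and 1 rose, and without the vorinostat replicates numbered 1 24 fell and 1 rose. The shares of all genes called in these fits are not given here.

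With vorinostat, 17 of the 33 fell and 3 rose, where 22.8% and 36.2% of all genes did. The median was -0.54, against 0.16 for all genes. Those that rose were the ferritin heavy chain FTH1 (0.91, with overlapping groups, limma adjusted p = 0.0495), ABCB6 (0.83) and SQSTM1 (0.63), an autophagy receptor that binds KEAP1. The ferritin light chain FTL, at 226, 305 and 306 against 1341, 2456 and 1885 FPKM, fell by 2.73 on the log2 scale. The list's count of genes higher was 2 in place of 3 with a pseudocount of 0.1, no filter, median-of-ratios or quantile scaling, only the compared groups, or without EGFR-low vorinostat replicate 2 or 3 or EGFR-high vorinostat replicate 1 or 3. Without the vorinostat replicates numbered 1, 23 fell and 2 rose, again without the share of all genes called in that fit.

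**Figure D5:**
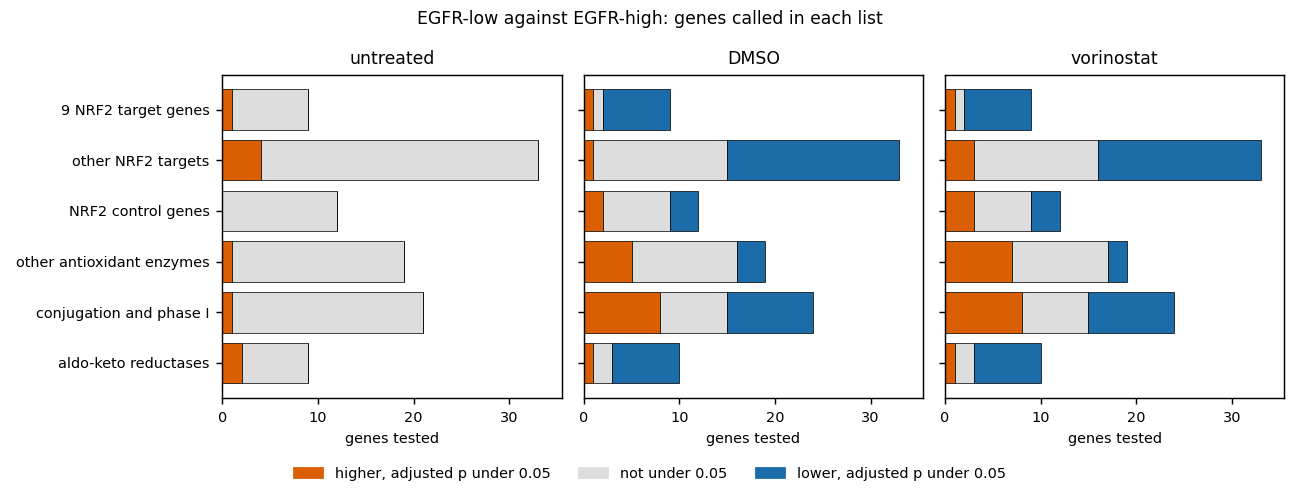
Number of genes tested (horizontal axes) in each list that passed higher (orange), lower (blue) or did not pass (grey) between EGFR-low and EGFR-high libraries, by limma adjusted p under 0.05, for untreated, DMSO and vorinostat libraries. Of the 33 other NRF2 targets, 4 were higher and 0 lower untreated, and 1 was higher and 18 lower with DMSO, where 31.1% and 20.7% of all genes were.

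The aldo-keto reductase family list held 13 genes. It includes AKR1C1, AKR1C2 and AKR1B10 of the 9 and AKR1C3 and AKR1B1 of the other NRF2 targets, so its counts overlap theirs. In untreated EGFR-low against EGFR-high cells 2 of 9 tested rose, where 1.62% of all genes did. They were AKR1B10 and AKR1B15 (1.79, limma adjusted p = 0.00195, 7.22 to 11.2 against 1.66 to 2.27 FPKM), whose sequences are alike. With DMSO 7 of 10 fell and 1 passed higher, where 20.7% and 31.1% of all genes did. AKR1C3, a ketosteroid reductase, was at 58.3, 1.53 and 0.913 FPKM in the libraries labelled EGFR-low and at 264, 261 and 198 FPKM in EGFR-high libraries. AKR1B1, or aldose reductase, fell from 799 to 1203 FPKM in EGFR-high libraries to 174 to 352 FPKM (-2.0, limma adjusted p = 0.000327). The one that passed higher was AKR1E2 (1.95), at 3.96 to 4.37 FPKM against 0.0125 to 1.37 FPKM, the highest of the latter being EGFR-high DMSO replicate 3. It was tested only because the EGFR-low libraries reached 1 FPKM, so its difference is given as a description. AKR1E2 was listed at 0 or at no more than 0.029 FPKM in all untreated libraries.

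Of the antioxidant enzymes outside the core NRF2 targets, 19 were tested. Glutaredoxin GLRX rose in untreated EGFR-low against EGFR-high cells (1.97, limma adjusted p = 0.0099), where 1.62% of all genes did. No other gene of this list passed there. With DMSO, 5 rose, with the mitochondrial thioredoxin reductase TXNRD2 highest (1.67) followed by the peroxiredoxin PRDX4 (0.96), and 3 fell, with the secreted glutathione peroxidase GPX3 lowest (-2.35) followed by PRDX6 (-0.87). Neither was a larger share than that of all genes called with DMSO (31.1% higher and 20.7% lower). TXNRD2 and TXNRD1 passed in opposite directions. GPX3 averaged 0.709 FPKM in the libraries labelled EGFR-low and 7.34 FPKM in EGFR-high libraries with DMSO. It was tested only because the EGFR-high libraries reached 1 FPKM, so its difference is given as a description.

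Of the conjugation and phase I genes, 1 of 21 rose in untreated EGFR-low against EGFR-high cells, where 1.62% of all genes did. It was the fatty aldehyde dehydrogenase ALDH3A2 (1.07, limma adjusted p = 0.0477). This call was lost with median-of-ratios scaling, the filter of 5 FPKM, only the compared groups fitted, or any 1 of the 6 libraries left out. With DMSO, 9 of 24 fell and 8 rose, where 20.7% and 31.1% of all genes did. UGT1A6, a glucuronosyltransferase, was at 68.0, 2.05 and 0.871 FPKM in libraries labelled EGFR-low and at 319, 290 and 231 FPKM in EGFR-high libraries (-5.25, SE 1.00, limma adjusted p = 0.00128). UGT1A1 (-3.40), SULT1A1 (-2.76) and ALDH1A3 (-2.74) followed. UGT1A1 and SULT1A1 averaged 1.21 and 1.36 FPKM in the libraries labelled EGFR-low, near the filter of 1 FPKM. Of 6 genes of the AHR pathway, which controls a further set of detoxification enzymes, TIPARP fell with DMSO (-0.58). CYP1A1 was at 0.224, 1.59 and 1.28 FPKM in the libraries labelled EGFR-low and at 0.0559 to 0.169 FPKM in EGFR-high libraries, and it was tested only because the EGFR-low libraries reached 1 FPKM. Its log2 difference of 0.78 passed, and was lost with quantile normalization, only the compared groups fitted, or without EGFR-low DMSO replicate 2 or 3 or EGFR-high DMSO replicate 1 or 2. None of 4 passed untreated.

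The genes most like each of the 9 were taken as those with the highest Pearson r on the log2 scale in both experiments, ranked by the smaller of the 2 values over 11118 genes (9 and 12 libraries). The r values are descriptive, since the libraries fall into groups. AKR1C2 followed UCHL1 (smaller r = 0.966), AKR1C3 (0.963) and UGT1A6 (0.935). AKR1B10 followed CEACAM6 (0.989) and CYP4F3 (0.961), and AKR1C1 followed SYTL3 (0.937), NSUN7 and SERTAD3. GCLM was most like HECA (0.947), GCLC like RBMX2 (0.909), TXNRD1 like BCAS3 (0.890) and SRXN1 like PELO (0.899). HMOX1 was most like NIPAL3 (0.953) and NDRG4 (0.952), and NQO1 like RPS9 (0.956), a ribosomal protein gene. AKR1C3 and UGT1A6 were the only genes of the fixed lists among the 3 most like any of the 9, and no member of the 9 was compared with the others in this ranking.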

How the data were processed

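Poly(A) RNA of PC-9 cells was measured in 21 libraries of 7 groups, assigned from the labels. The deposited values are FPKM that the authors made per gene and library. This unit is inferred, as the naming mentions counts but the values are not whole. The submitters' processing notes name hg19, STAR 2.5.1b, Cufflinks 2.2.1 and DESeq2 1.10.1 without their roles. FPKM divides by mapped fragments, so a few abundant genes can shift all others. Depth is unknown.

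A gene entered the test where 3 or more libraries of its experiment reached 1 FPKM (11305 untreated, 12236 vorinostat). log2(FPKM + 1) was fitted with limma 3.58.1 (R 4.3.3, trend, a mean per group) with Benjamini-Hochberg adjustment over all genes tested and a threshold of 0.05. Fold changes on this scale understate those of low genes. The experiments were normalised separately, so no test was made across them. The code was tested on simulated data. The paper calls replicates independent experiments.

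Same-numbered untreated EGFR-low and EGFR-high libraries deviated together (r from 0.343 to 0.730 over genes), as did vorinostat EGFR-low and EGFR-high (0.163 to 0.353) and DMSO and vorinostat EGFR-low (0.267 to 0.329), so the numbers were taken to pair these libraries. The other comparisons did not pass that check, and their block values stand only with the alternatives. Each block fit used all libraries of its experiment, also those whose numbers did not pair.

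The genes, lists and naming rule were chosen with earlier results of these data known. Named genes were the 9, EGFR, NFE2L2, KEAP1, BACH1, AKR1C3, AKR1B1, up to 4 called genes of largest change per list and comparison, and the 3 most alike genes per member, of which 1 is not reported here and others are left out for brevity. FTL, SQSTM1, FTH1, ABCB6, BTRC and AKR1E2 and the marker genes named outside this rule were chosen after their values were seen. Positions and coding sequences are from GENCODE 29 (GRCh38) and promoters from RefSeq, which is another build than the submitters' hg19. Sequences were handled with Biopython 1.88 and figures drawn with matplotlib 3.10.9. Alternatives were pseudocounts of 0.1 and 5, no filter, a filter of 5 FPKM, median-of-ratios and quantile scaling, the replicate block, no trend, only the compared groups, AKR1C1 and AKR1C2 summed, each library left out, and, added after the data were seen, the intermediate DMSO libraries or the vorinostat replicates numbered 1 left out.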

Additional observations from a re-analysis of the deposited data

Results flagged for a closer look

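For 5 of the 9 genes, every EGFR-low library was above every EGFR-high library in the untreated experiment and below every EGFR-high library with DMSO. Of all genes tested, 9.39% were higher without overlap untreated and 28.4% were lower without overlap with DMSO. The share of all genes that did both was not computed, so this count has no background. The log2 differences were 0.42 and -1.22 for GCLC, 1.17 and -2.07 for GCLM, 0.26 and -1.38 for TXNRD1, 1.56 and -4.28 for AKR1C1, and 2.2 and -3.87 for AKR1B10. The difference between the experiments was not tested, since their tables were normalised separately, and the experiments differ in time after seeding and in DMSO. The libraries labelled EGFR-low in these experiments also differed in the NKX2-1 levels given above. Of the genes at 10 FPKM or more in all untreated EGFR-low libraries, 8 were under 1 FPKM in all EGFR-low DMSO libraries, and 83 in all EGFR-low vorinostat libraries. The part of these in the reversal was not tested.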

How the results depend on the processing

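Untreated, 1 of the 9 genes passed between EGFR-low and EGFR-high cells, and 3 passed with quantile normalization, 3 with the replicate block and 2 with only the compared groups. Between EGFR-low and parental cells 1 passed, and 2 passed with median-of-ratios scaling, 3 with quantile normalization, 3 with the replicate block and 0 to 3 with a library left out (0 without EGFR-low replicate 1 or 3, 3 without parental replicate 2). The cause was not tested. With DMSO and with vorinostat the count of 8 stayed between 6 and 9 under every alternative run, and in the vorinostat against DMSO comparisons and their difference it stayed at 0. The replicate block changed no other count of the 9. These counts are given without the share of all genes called under each alternative.

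Single log2 differences that changed sign belonged to genes that did not pass. With a library left out, they ran from -0.46 to 0.088 for NQO1 and from -0.022 to 0.24 for SRXN1 (untreated EGFR-low against EGFR-high), and from -0.068 to 0.19 for GCLC and -0.36 to 0.39 for AKR1C1 (EGFR-high against parental). In that last comparison GCLC was -0.051 and AKR1C1 -0.054 with median-of-ratios scaling, and TXNRD1 was -0.047 with quantile normalization. For vorinostat against DMSO in EGFR-low, the ranges with a library left out were -0.050 to 0.74 for HMOX1, -0.16 to 0.092 for GCLC, -0.37 to 0.32 for GCLM, -0.060 to 0.32 for TXNRD1, -1.43 to 0.28 for AKR1C1 and -1.34 to 0.037 for AKR1B10. In EGFR-high they were -0.64 to 0.21 for NQO1, -0.99 to 0.12 for HMOX1, -0.53 to 0.13 for GCLC, -0.18 to 0.33 for GCLM, -0.25 to 0.28 for TXNRD1, -0.79 to 0.13 for AKR1C1, -0.66 to 0.33 for AKR1C2 and -0.074 to 0.46 for AKR1B10. TXNRD1 in EGFR-high was 0.042 with median-of-ratios scaling and 0.026 with quantile normalization. Without the 2 intermediate DMSO libraries, HMOX1, GCLM, AKR1C1 and AKR1B10 in EGFR-low were -0.050, 0.32, 0.28 and 0.037, and HMOX1, GCLM and AKR1B10 in EGFR-high were 0.12, -0.11 and -0.074. Without the vorinostat replicates numbered 1, GCLC in EGFR-low was -0.16, and NQO1, GCLC, TXNRD1, AKR1C1 and AKR1C2 in EGFR-high were 0.21, 0.13, 0.28, 0.13 and 0.33. Depth is unknown, so levels under about 1 FPKM, such as those of AKR1C1 in libraries labelled EGFR-low, carry an unknown counting error.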
